A study of Mus musculus with 2 samples.

Results

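The SoxB genes described here are Sox1, Sox2, Sox3 and Sox21, taken by name as 4 of the 21668 protein-coding genes of the annotation. Sox14, a further SoxB gene, is listed below with the other Sox genes. The term SoxB genes means these 4 in what follows. For each gene, the deposited DNase-seq peaks were taken within 500 bp of its transcription start site (TSS) and from 200 kb before to 200 kb after the gene. DNase-seq maps accessible chromatin by sequencing the ends of fragments cut by DNase I. The tissue was whole midbrain of B6NCrl mouse embryos at embryonic day 11.5, male and female embryos pooled, in 1 group of 2 biological replicates. There was no control, input or other tissue, so nothing was compared but places in the genome and the 2 replicates. Replicate 1 was sequenced on HiSeq 2500 and NextSeq 500 instruments and replicate 2 on HiSeq 2000 and HiSeq 2500, so the instrument and the replicate cannot be told apart.

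SoxB proteins bind DNA through an HMG box, usually next to a partner such as a POU or Pax protein. Sox1, Sox2 and Sox3 form the SoxB1 subgroup, activators that keep cells of the neural tube as dividing progenitors. Sox21 belongs to the SoxB2 subgroup, a repressor that in chick counteracts the SoxB1 proteins and promotes the exit to neurons. At embryonic day 11.5 the midbrain holds a ventricular zone of such progenitors and an outer layer of newborn neurons.

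The SoxB genes lay on 4 chromosomes, and all coordinates are on mm10. Sox1 spans chr8:12395295-12400126 on the plus strand. Sox2 spans chr3:34650405-34652461 on the plus strand and lies inside the long noncoding gene Sox2ot. Sox3 spans chrX:60891366-60893430 on the minus strand. Sox21 spans chr14:118233232-118237030 on the minus strand.

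All 4 loci had the same outline. The TSS was accessible in both replicates and stood in a dense run of accessible sites, which in the 15 kb on either side numbered 34 at Sox2, 28 at Sox1, 19 at Sox21 and 13 at Sox3. The median over all protein-coding genes was 2. A site counts here as shared when peaks of both replicates overlap by at least 1 bp and are merged, and as distal when it lies over 2.5 kb from every protein-coding TSS. In the wider spans the shared sites numbered 57 at Sox1, 57 at Sox2, 18 at Sox3 and 44 at Sox21, against a median of 23 over the equally flanked spans of all protein-coding genes.

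The strongest shared distal sites are shown because they rank highest over both replicates among the sites away from protein-coding TSSs. They are the 2 sites per gene with the highest mean percentile of signal in the replicates' lists, given as 150 bp around the site's midpoint on the plus strand of GRCm38.p6. Capitals mark the SOX core, ACAAAG or ACAATG on either strand, the short sequence that the HMG box prefers.

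Sox1, chr8:12391696-12391845: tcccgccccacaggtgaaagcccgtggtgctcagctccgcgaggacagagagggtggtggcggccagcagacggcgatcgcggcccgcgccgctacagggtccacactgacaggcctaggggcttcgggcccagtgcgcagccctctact
Sox1, chr8:12385426-12385575: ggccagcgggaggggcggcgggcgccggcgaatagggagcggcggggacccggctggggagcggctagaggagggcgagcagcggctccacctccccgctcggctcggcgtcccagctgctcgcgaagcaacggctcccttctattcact
Sox2, chr3:34640816-34640965: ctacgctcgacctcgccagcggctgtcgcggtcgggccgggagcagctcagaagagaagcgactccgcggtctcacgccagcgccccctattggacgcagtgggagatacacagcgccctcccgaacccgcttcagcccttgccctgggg
Sox2, chr3:34664346-34664495: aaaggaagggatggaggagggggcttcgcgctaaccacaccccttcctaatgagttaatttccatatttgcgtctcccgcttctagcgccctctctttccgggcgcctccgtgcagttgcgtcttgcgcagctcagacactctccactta
Sox3, chrX:60719846-60719995: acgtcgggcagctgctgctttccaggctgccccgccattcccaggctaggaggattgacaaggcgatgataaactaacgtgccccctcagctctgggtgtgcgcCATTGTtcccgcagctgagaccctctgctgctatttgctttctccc
Sox3, chrX:60890106-60890255: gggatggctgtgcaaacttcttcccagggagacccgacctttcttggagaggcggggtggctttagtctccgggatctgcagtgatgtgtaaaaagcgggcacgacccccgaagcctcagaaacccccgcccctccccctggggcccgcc
Sox21, chr14:118089286-118089435: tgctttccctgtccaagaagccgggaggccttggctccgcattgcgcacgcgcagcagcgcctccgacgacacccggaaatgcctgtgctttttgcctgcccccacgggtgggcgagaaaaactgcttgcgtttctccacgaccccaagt
Sox21, chr14:118436916-118437065: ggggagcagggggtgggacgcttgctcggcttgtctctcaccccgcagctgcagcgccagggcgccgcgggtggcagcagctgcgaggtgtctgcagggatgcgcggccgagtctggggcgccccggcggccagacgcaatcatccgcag

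Of these 8 sites, 1 held a SOX core, the first of Sox3, as CATTGT. The 8 sequences were between 56% and 74.7% GC, all above the median of 52.7% over the 147 shared distal sites of the 4 spans, so they are GC-rich examples and not typical ones. The most GC-rich were the second site of Sox1 (74.7%), the second of Sox21 (74%), the first of Sox1 (70.7%) and the first of Sox2 (69.3%).

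At the TSS, signal was high for Sox1 and Sox2 and lower for Sox3 and Sox21. The deposited signal is the authors' own value per peak, with no unit given, and is used here to rank peaks within a list. All 4 SoxB genes had a TSS peak in both replicates, as did 65.5% of all protein-coding genes, so presence alone sets them apart little. Of X-linked protein-coding genes, among them Sox3, 49.6% had one.

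Sox1, an early marker of the neural plate, had TSS peaks of signal 128 and 130 in replicate 1 and of 49, 91 and 78 in replicate 2. Its highest peak ranked at the 82.3rd percentile in replicate 1 and the 92.3rd in replicate 2 among genes with a TSS peak. Most open promoters had a weaker peak than Sox1 in both replicates.

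Sox2, required in neural stem cells and in pluripotent cells, had TSS peaks of 134 and 70 in replicate 1 and of 83 and 60 in replicate 2. The highest lay at the 90.6th percentile in replicate 1 and the 78.8th in replicate 2. In both replicates the strongest peak did not cover the annotated TSS: its near edge was 420 bp upstream of it in replicate 1 and 440 bp upstream in replicate 2. RefSeq places the start of Sox2 410 bp upstream of the GENCODE TSS, at position 34649995, beside that peak (chr3:34649836-34649985 in replicate 1). The 250 bases before the RefSeq start, from RefSeq on GRCm38.p6, therefore hold the strongest Sox2 peak of both replicates whole. They contain 1 SOX core (capitals), which lies upstream of both of these peaks and not in them. The shared site that these peaks form held no SOX core.

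Sox2, chr3:34649745-34649994: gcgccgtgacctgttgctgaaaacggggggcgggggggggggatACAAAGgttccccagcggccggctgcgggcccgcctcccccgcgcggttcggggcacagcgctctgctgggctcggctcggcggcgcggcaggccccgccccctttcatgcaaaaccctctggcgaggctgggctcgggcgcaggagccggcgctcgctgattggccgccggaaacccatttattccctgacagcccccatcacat

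RefSeq promoters were found for 3 of the 4 genes, not for Sox3. A SOX core occurred in 25.2% of all 32851 RefSeq promoter windows of this length. The Sox1 and Sox21 windows held none.

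Sox3, the X-linked gene of the subgroup, had 1 TSS peak of 87 in replicate 1 and peaks of 36, 34, 42 and 43 in replicate 2. The highest ranked at the 28.8th percentile in replicate 1 and the 18.9th in replicate 2. The median TSS signal of X-linked genes with a TSS peak was 90 in replicate 1 and 42 in replicate 2, against 113 and 69 for autosomal genes. Sox3 thus lay close to the X-linked medians in both replicates. Whether the chromosome sets the level was not tested.

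Sox21 had TSS peaks of 85 and 100 in replicate 1 and of 69, 62 and 58 in replicate 2. The highest ranked at the 37.5th percentile in replicate 1, below the middle of open promoters, and at the 51.0th in replicate 2, near it. In order of the highest TSS signal, Sox2 and Sox1 led in both replicates, 134 and 130 in replicate 1 and 83 and 91 in replicate 2. They changed places between replicates, so their order was not settled. Sox21 followed with 100 and 69, and Sox3 with 87 and 43. In bulk tissue, fewer cells with an open site and less cutting per cell cannot be told apart.

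Hotspots, the authors' broader regions of raised cutting, included very wide ones at all 4 genes. The widest hotspot of the Sox2 span was 4082 bp in replicate 1 and 12338 bp in replicate 2, and both covered the TSS. At Sox3 the widest measured 6331 bp in replicate 1 and 3612 bp in replicate 2, and at Sox21 3784 bp and 4798 bp, all covering the TSS. At Sox1 the widest was 6741 bp in replicate 2 and covered the TSS. In replicate 1 it was 3934 bp, lay upstream across the start of the noncoding gene Sox1ot, and was followed by one of 3643 bp over the Sox1 TSS. Over the genome the median hotspot was 214 bp in replicate 1 and 201 bp in replicate 2. The widest of a span is its extreme, and the span medians were much nearer to these values. In replicates 1 and 2 they were 275 and 302 bp at Sox1 and 329 and 152 bp at Sox2. At Sox3 they were 177 and 275 bp, and at Sox21 242.5 and 233 bp. Each of these 8 widest hotspots sat at the ceiling of 100 for the deposited −log10 q-value, as did 36.6% of all hotspots of replicate 1 and 29.6% of replicate 2. Hotspots covered 77.0% of the 15 kb on either side of the Sox2 TSS in replicate 1 and 94.7% in replicate 2, the highest of the 4 genes. At Sox1 they covered 61.0% and 86.9%, at Sox21 40.3% and 48.6%, and at Sox3 46.4% and 28.0%.

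**Figure D1:**
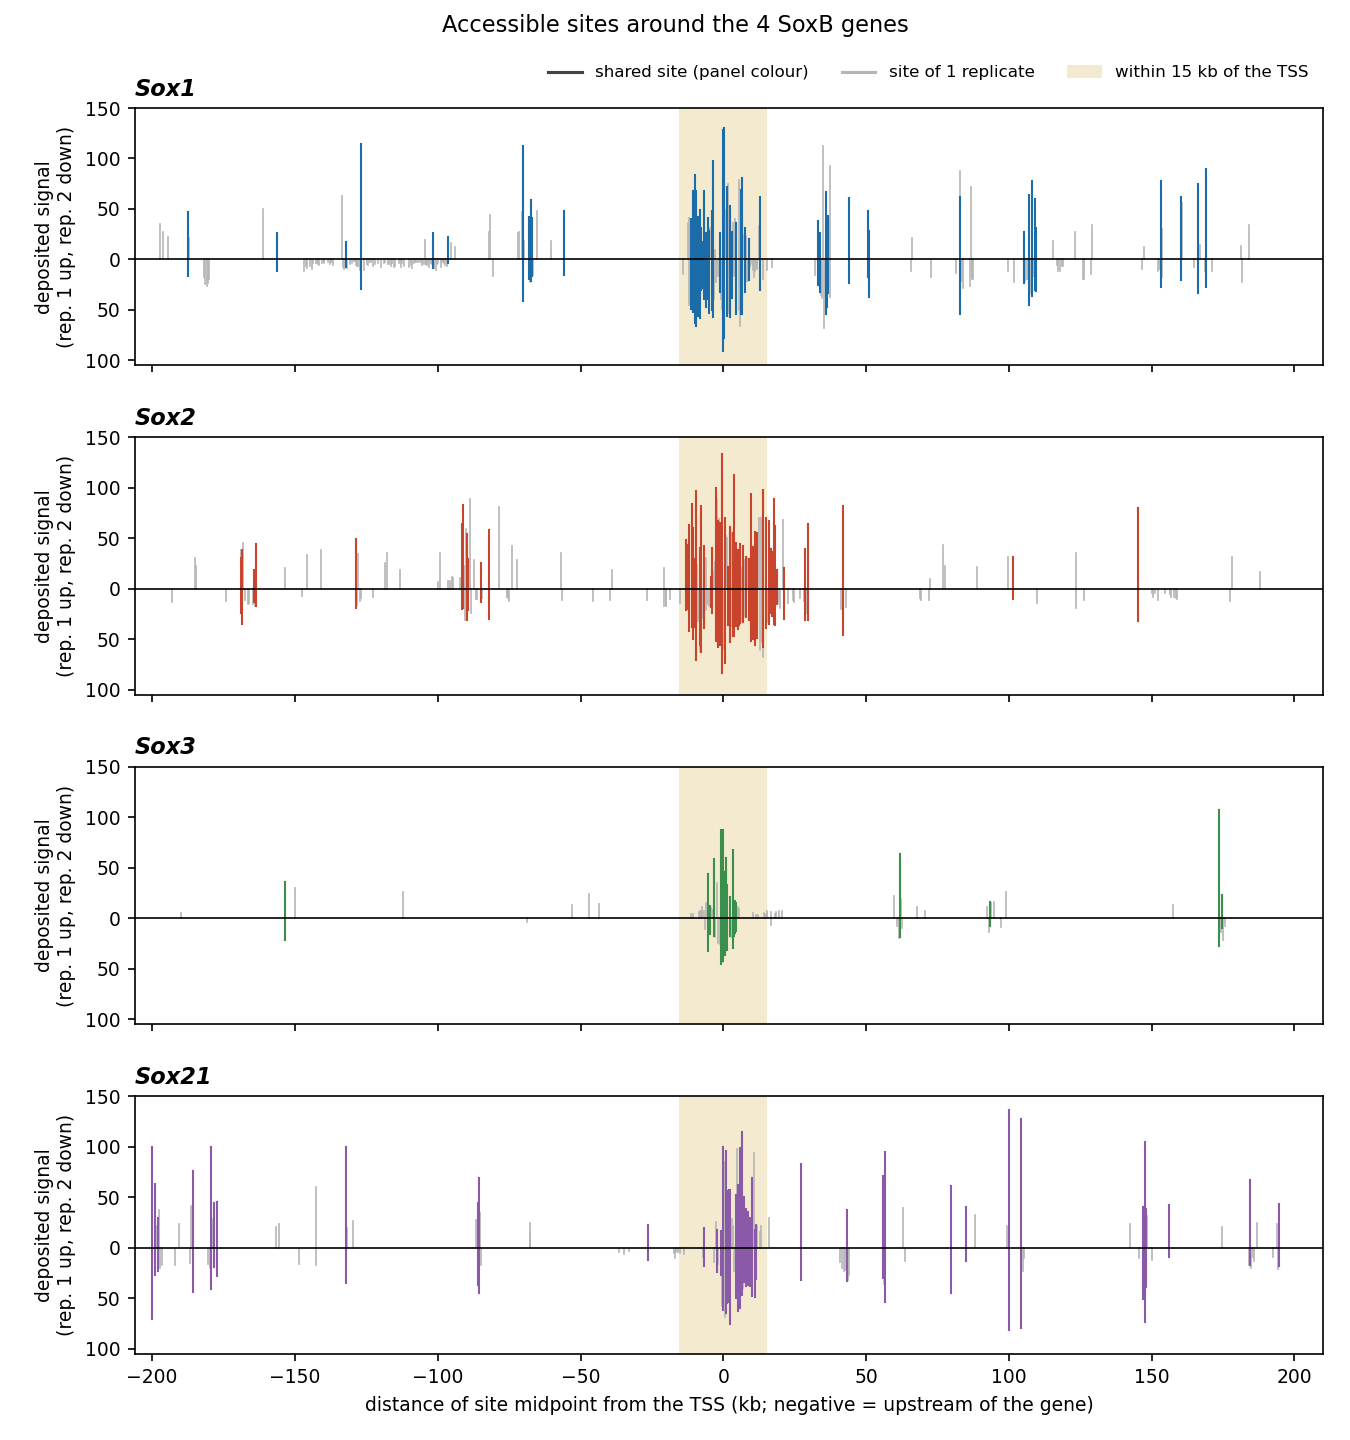
Accessible sites in the span of each SoxB gene. Each vertical line is a site at its distance from the TSS in kb, with the deposited signal of replicate 1 drawn upward and of replicate 2 downward. Coloured lines are shared sites, grey lines are sites of 1 replicate, and the shaded band marks 15 kb on either side of the TSS. At each gene the coloured lines crowd into the band, with 34 at Sox2, 28 at Sox1, 19 at Sox21 and 13 at Sox3.

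By the number of shared sites around the TSS, Sox1, Sox2 and Sox21 stood high among all protein-coding genes, and Sox3 did so less steadily. The window of 15 kb was chosen after the plot of sites by distance had been seen. Sox2 had 34 shared sites in it, a number reached by 4 protein-coding genes, itself included, which put it at the 99.98th percentile. Sox1 had 28, reached by 14 genes and at the 99.94th percentile. Sox21 had 19, reached by 76 genes and at the 99.7th percentile. Sox3 had 13, reached by 222 genes and at the 99.1st percentile, and among the 948 X-linked genes it was at the 99.7th. Sox3 was at the 97.5th percentile of all genes in a 25 kb window (610 genes), the 97.4th on the stronger 50% of peaks (666 genes), the 96.9th with an overlap of 75 bp (825 genes) and the 90.6th from replicate 2 alone (2125 genes). From replicate 2 alone Sox21 was at the 96.0th. The gene with the most was Zic2 with 38, and among the genes between it and Sox1 in the order were the neural regulators Pou3f3 (35), Pou3f2 (32), Zic5 (31), Pax6 (30) and Nr2f1 (30), and genes of the Hist1 histone cluster.

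The density dropped outside the window at all 4 genes. Per 10 kb, Sox2 had 11.3 shared sites within the window and 0.618 beyond it. Sox1 had 9.33 within and 0.774 beyond, Sox21 6.33 and 0.669, and Sox3 4.33 and 0.134. Of all 176 shared sites of the 4 spans, 94 (53.4%) lay in the window. For the average protein-coding gene the window held 10.6% of the span's shared sites.

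The runs differed in shape. At Sox1, 16 of the 28 sites lay upstream of the TSS and 12 downstream. At Sox2 the sides held 16 and 18, and at Sox3 5 and 8. At Sox21 the run was one-sided, with 4 sites upstream and 15 in the gene or beyond its end, and the farthest of those 15 lay 11.32 kb from the TSS. At Sox3 all 13 sites of the window were within 5.4 kb of the TSS.

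**Figure D2:**
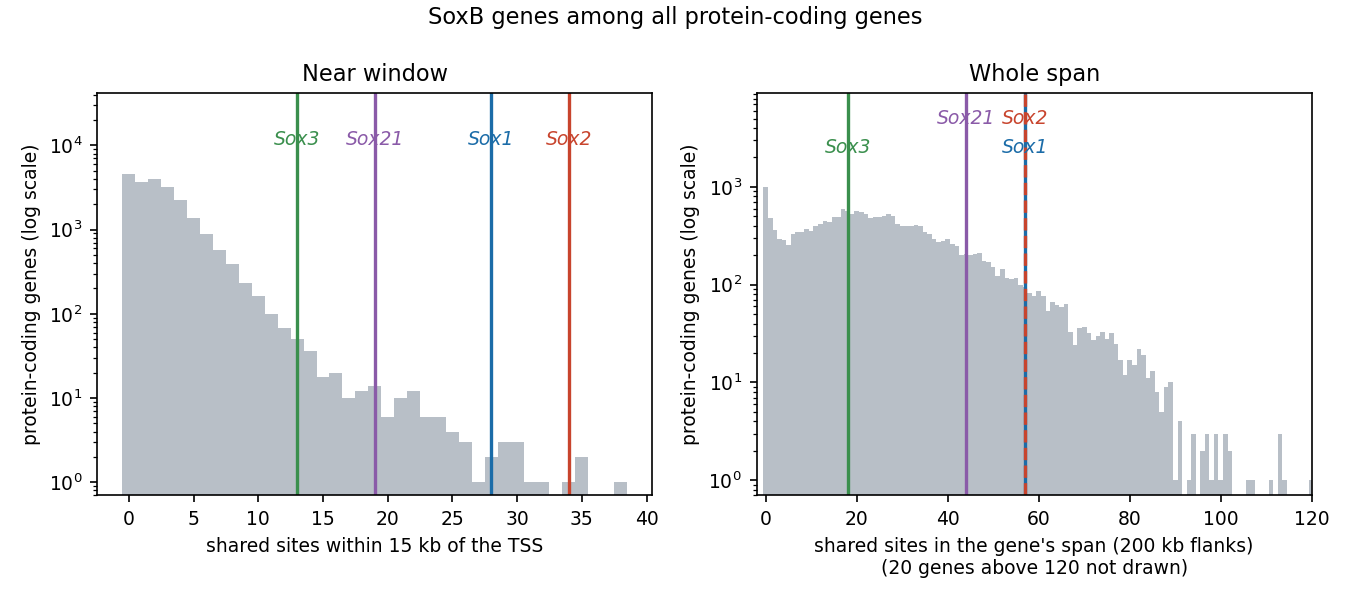
Shared sites per gene for all 21668 protein-coding genes, within 15 kb of the TSS (left) and in the whole span (right), with the number of genes on a log axis. Coloured lines mark the SoxB genes. Within 15 kb the 4 genes stand in the thin right tail at 13 to 34 sites, while over the whole span Sox3, at 18, lies below the median of 23.

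Over the whole spans the SoxB genes were less exceptional. Sox1 and Sox2, with 57 shared sites each, lay at the 94.4th percentile of all protein-coding genes, Sox21 with 44 at the 85.2nd and Sox3 with 18 at the 36.8th. These ranks depended on the feature and the replicate: with shared hotspots in place of peaks Sox1 was at the 77.8th, Sox2 at the 52.9th and Sox21 at the 75.9th. From replicate 2 alone Sox2 was at the 78.5th and Sox21 at the 53.2nd. Spans on the X chromosome held fewer shared sites, a median of 8, and among them Sox3 lay at the 81.3rd percentile. Of the merged sites in the 4 spans, 27.5% were shared (176 of 641), against 15.4% over the genome. Over the stronger 50% of each replicate's peaks the shares drew together, at 33.9% in the 4 spans against 30.1% over the genome. With all peaks, the share was 22.8% at Sox1, 30.8% at Sox2 and 34.4% at Sox21. At Sox3 it was 23.1%, against 22.6% over the X chromosome.

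**Figure D3:**
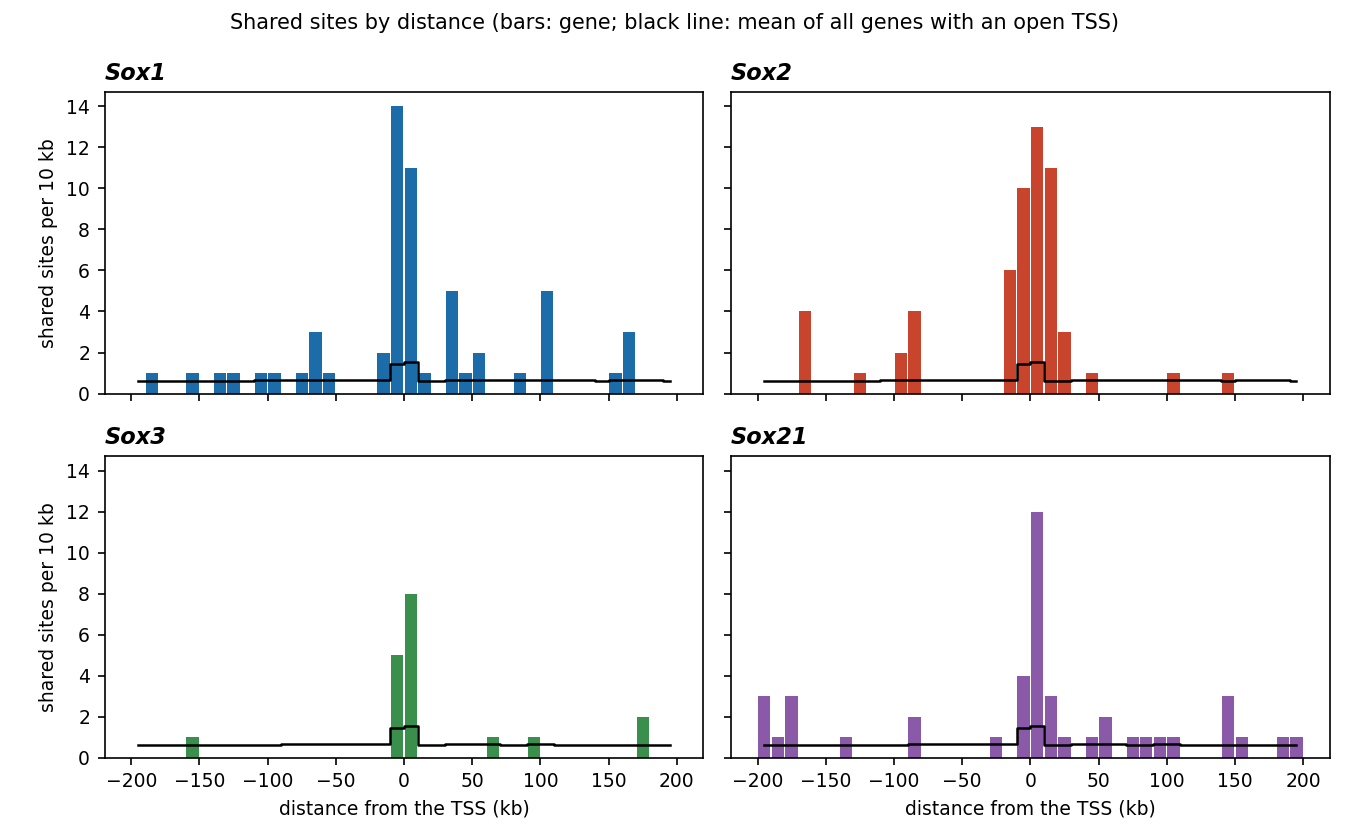
Shared sites in each 10 kb of distance from the TSS, negative distances being upstream. Bars are the SoxB genes and the black line is the mean of the 14190 protein-coding genes with a TSS peak in both replicates. The bars next to the TSS rise well above the line at all 4 genes, and at Sox3 few bars stand outside them.

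Many of the shared sites at Sox2 and Sox1 lay inside noncoding genes. Sox2ot, a long noncoding gene whose transcripts run over Sox2 on the same strand, contained 54 of the 57 shared sites of the Sox2 span. Sox1ot, which overlaps Sox1 on the same strand, contained 30 of the 57 at Sox1. Sox2ot covers all of the Sox2 span upstream of the gene and the whole 15 kb window. Sox1ot covers most of the dense run at Sox1. Neither count was compared with the length of sequence that these genes cover. Of the 147 shared distal sites of the 4 spans, 19 lay within 500 bp of a TSS of a noncoding gene, 11 of them at Sox2, 5 at Sox1 and 3 at Sox21. The share over all shared distal sites was not computed, so 19 cannot be read as many or few. The second of the strongest Sox1 sites was among the 19, 271 bp from the start of Sox1ot. So was the second of the strongest Sox2 sites, 131 bp from the start of the unclassified transcript Gm42693.

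Few protein-coding genes share these spans. No other protein-coding TSS lay in the spans of Sox2 and Sox3. At Sox1 there were 2, Spaca7 with no TSS peak in either replicate and A230072I06Rik with a peak of 7 in replicate 2 only. At Sox21 there were 4. Gpr180 had TSS peaks of up to 136 in replicate 1 and 82 in replicate 2, Tgds of 127 and 80, and Dct, a melanin synthesis enzyme, of 67 and 20, while Gm9376 had none. The Sox21 TSS, at 100 and 69, was weaker than those of Gpr180 and Tgds. Shared sites at other genes' TSSs made up 3 of the 44 at Sox21.

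Among the strongest distal sites, those of Sox2 and Sox1 were mostly close to the gene and those of Sox3 and Sox21 mostly far. At Sox2 the strongest, chr3:34640816-34640965 in an intron of Sox2ot, lay 9.52 kb upstream of the TSS with signals of 97 in replicate 1 and 71 in replicate 2. The second lay 14.02 kb downstream (98 and 58) and the third, chr3:34653996-34654145, 3.67 kb downstream with signals of 113 and 47. All were in introns of Sox2ot.

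At Sox1 the strongest site, chr8:12391676-12391865, lay 3.52 kb upstream in an intron of Sox1ot with signals of 97 and 57. The second was 9.79 kb upstream (84 and 63), by the start of Sox1ot. The third, chr8:12325076-12325245, was intergenic and 70.14 kb upstream, with signals of 112 and 41.

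At Sox3 the strongest site, chrX:60719836-60720005, lay 173.51 kb downstream in an intron of the antisense gene Gm14661, with signals of 107 and 28. Its replicate 1 signal was above that of the Sox3 TSS (87), and its replicate 2 signal was below (43). The other 2 lay 3.25 kb (68 and 30) and 61.92 kb downstream (64 and 19), both intergenic.

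At Sox21 the strongest site, chr14:118089276-118089445, was intergenic and 147.67 kb downstream, with signals of 105 and 74, and lay closer to the TSS of Dct than to that of Sox21. The second, chr14:118436916-118437065, was 199.96 kb upstream at the edge of the span (100 and 71). The third lay 5.86 kb downstream (99 and 60). The first 2 of these sites matched or exceeded the Sox21 TSS, at 100 and 69, in both replicates.

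The nearest shared distal sites lay 3.15 kb from the TSS of Sox1, 3.33 kb at Sox2, 3.1 kb at Sox3 and 4.57 kb at Sox21, with signals of 27 and 38, 55 and 47, 59 and 18, and 52 and 50 in replicates 1 and 2. The farthest upstream lay at 187.62 kb for Sox1, 169.03 kb for Sox2 and 153.47 kb for Sox3, and at 199.96 kb for Sox21. Farthest downstream they lay at 169.21 kb, 145.31 kb, 174.75 kb and 194.76 kb. No site was tied to a gene by any measurement here. The farther ones were assigned by distance alone.

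The replicates differed more at some SoxB genes than over the genome. Replicate 2 had 454408 peaks and replicate 1 had 305818 on chromosomes 1 to 19 and X, a ratio of 1.49, with a lower median signal in replicate 2 (8) than in replicate 1 (18). At Sox1 replicate 2 had 224 peaks and replicate 1 had 106, a ratio of 2.11. At Sox2 it had 150 and 116 (1.29), and at Sox21 103 and 83 (1.24). At Sox3 it had 38 and 67, a ratio of 0.567, although over the X chromosome the ratio was 1.29. Sox3 was thus the 1 member with fewer peaks in replicate 2.

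The excess at Sox1 came largely from a run of weak peaks. Between 150 and 90 kb upstream of its TSS lay 79 sites of replicate 2 only, 4 of replicate 1 only and 4 shared sites. The 79 had a median signal of 5, with a lowest of 2 and a highest of 12. The other 69 sites of replicate 2 only in the Sox1 span had a median of 17. This interval was chosen after the plot had been seen, and what sets these sites apart was not tested.

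The strongest sites of a single replicate were not all weak. At Sox1, chr8:12430216-12430365, an exon of Sox1ot 34.99 kb downstream, had a signal of 112 in replicate 1 alone, and its neighbour chr8:12430476-12430625 had 68 in replicate 2 alone. At Sox2 the highest were 89 in replicate 1 alone, 88.58 kb upstream, and 68 in replicate 2 alone, 13.77 kb downstream. At Sox21 they were 98, 4.92 kb downstream, and 69, 0.54 kb downstream. At Sox3 they were 35, 2.18 kb upstream, and 43, 0.4 kb upstream. Several of these lay close to peaks of the other replicate, so a lack of overlap did not always mean a closed neighbourhood.

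Within the runs, signal was also distributed differently between replicates. Of the 94 shared sites within 15 kb of a SoxB TSS, 33 (35.1%) had the higher signal in replicate 2. Beyond 15 kb it was 6 of 82 (7.32%), and over the genome 10.4% of shared sites. By gene, the near count was 14 of 28 at Sox1, 9 of 34 at Sox2, 2 of 13 at Sox3 and 8 of 19 at Sox21. The median signal of the near sites at Sox1 was 45 in replicate 1 and 52.5 in replicate 2, while beyond 15 kb it was 48 and 27. At Sox2 the near medians were 55 and 44.5 and the far ones 44 and 27. At Sox21 they were 52 and 48 near and 63 and 35 far, and at Sox3 44 and 29 near and 36 and 19 far.

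The pattern was not confined to the SoxB genes. Around the 218 other protein-coding genes with at least 13 shared sites within 15 kb, 30.3% of 2740 shared sites had the higher signal in replicate 2. The near sites were richer in GC than the far ones, with a median of 55.3% against 52.7%. Over the genome, shared sites were put in 5 classes of GC content of about equal size. The share with the higher signal in replicate 2 ranged from 8.94% to 12.2% across these classes. The part of GC content in the pattern was not tested. The replicates differed in their sets of instruments, although both included the HiSeq 2500. Instrument and replicate cannot be told apart here, and the part of either was not tested.

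**Figure D4:**
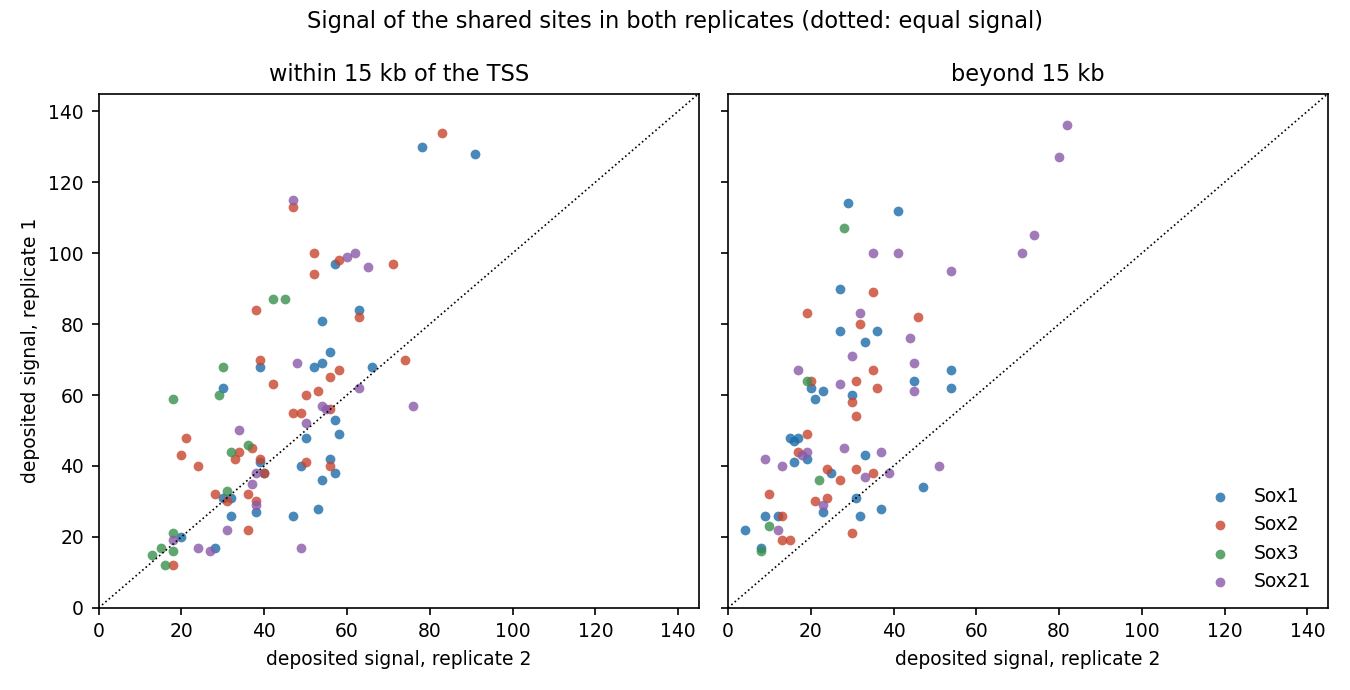
Signal of each shared site of the SoxB spans in replicate 2 (horizontal) and replicate 1 (vertical), within 15 kb of the TSS (left, 94 sites) and beyond (right, 82 sites). Points below the dotted line have the higher signal in replicate 2, 33 of them on the left and 6 on the right.

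Sox2 is known to bind enhancers of its own gene together with POU factors, so the shared distal sites were searched for SOX and partner sequences. A SOX core lay in 28 of the 147 sites (19.05%), against 24.7% of all 60578 shared distal sites. The count was 9 of 51 at Sox1, 9 of 50 at Sox2, 2 of 12 at Sox3 and 8 of 34 at Sox21. In 300 bp windows it was 20 of 51 at Sox1 and 16 of 50 at Sox2. At Sox3 it was 8 of 12 and at Sox21 15 of 34. Together this was 40.1%, close to the 41.5% of all sites, and at Sox3 and Sox21 the share was not lower. The counts per gene are small and some lay near the genome share, so no difference between the genes is read from them. ACAAAG alone was in 14.3% of the SoxB sites against 16.8% of all, and ACAATG alone in 7.48% against 9.82%. With the peaks of 1 replicate alone, a SOX core lay in 28.5% of the SoxB sites for replicate 1 and 19.4% for replicate 2. No genome share was computed from 1 replicate, so the lower share was not checked there. The median GC content was 52.7% in the 147 sites and 50.7% in all shared distal sites. Both cores are rich in A and T, and the part of base composition was not tested.

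Most sites with a core held only 1: there were 10 cores in 9 sites at Sox1 and 9 in 9 at Sox2. At Sox3 there were 3 in 2 and at Sox21 13 in 8. At Sox1, Sox3 and Sox21 the site with the most cores was picked for printing after the counts were known. Sox21 had a site with 3 cores, all ACAATG in the same orientation. That site, chr14:118230516-118230765, lies 6.39 kb downstream with signals of 115 in replicate 1 and 47 in replicate 2. Sox1 and Sox3 each had 1 site with 2, and Sox2 had none with more than 1. Other Sox21 sites with 2 cores lay 6.74 kb, 132.13 kb and 179.28 kb upstream. Capitals mark the cores in the 150 bp around each midpoint.

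Sox1, chr8:12503476-12503625: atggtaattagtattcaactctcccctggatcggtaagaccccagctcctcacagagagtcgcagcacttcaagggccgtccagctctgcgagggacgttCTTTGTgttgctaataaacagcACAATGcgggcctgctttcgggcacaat
Sox3, chrX:60831436-60831585: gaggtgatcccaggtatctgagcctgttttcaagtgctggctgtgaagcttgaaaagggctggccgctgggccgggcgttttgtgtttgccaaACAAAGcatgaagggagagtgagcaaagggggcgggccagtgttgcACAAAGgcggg
Sox21, chr14:118230566-118230715: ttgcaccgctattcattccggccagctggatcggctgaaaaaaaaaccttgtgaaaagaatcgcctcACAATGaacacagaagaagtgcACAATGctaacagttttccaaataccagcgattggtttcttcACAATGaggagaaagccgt

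The POU octamer, ATGC followed by AAAT or TAAT and on either strand, lay in 3 of the 147 sites (2.04%), against 2.37% of all. At Sox1 there were 2 such sites and at Sox2 1, the Sox2 site being in an intron of Sox2ot (capitals).

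Sox2, chr3:34521706-34521855: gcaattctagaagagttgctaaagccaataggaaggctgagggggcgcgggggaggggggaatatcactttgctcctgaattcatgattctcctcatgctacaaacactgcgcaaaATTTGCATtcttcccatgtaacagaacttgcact

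No SoxB site held a SOX core and an octamer, in either order, with at most 3 bases between them. Of all shared distal sites, 0.0446% did.

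Other short sequences were counted on both strands in the same windows. The RBPJ sequence GTGGGAA, read by the DNA-binding partner of Notch, was in 11 of the 147 sites (7.48%), against 3.67% of all. The CTCF pattern CCNNNAG followed after 2 bases by GGCNG was in 2 (1.36%), against 6.74%. TAATTA, read by many homeodomain proteins, was in 4.76% against 3.50%. The E-boxes CAGCTG and CAGATG of proneural bHLH proteins were in 23.8% against 27.4%, the MEIS sequence TGACAG in 11.6% against 13.6% and the TEAD sequence GGAATG in 6.80% against 9.003%. The GATA sequence AGATAA was in 7.48% against 5.70%. The RFX pattern, GTNNCC and GGNAAC 2 bases apart, was in 2.04% against 1.51%. The NFI pattern, TTGGC and GCCAA 5 bases apart, was in none, against 0.0462%. In 300 bp windows the RBPJ shares drew together, at 9.52% against 7.27%, while the CTCF shares stayed apart at 2.72% against 7.83%. Those of GATA (12.9% against 13.3%) and MEIS (25.2% against 24.1%) changed order. A match is a stretch of letters and does not show that a factor was bound.

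**Figure D5:**
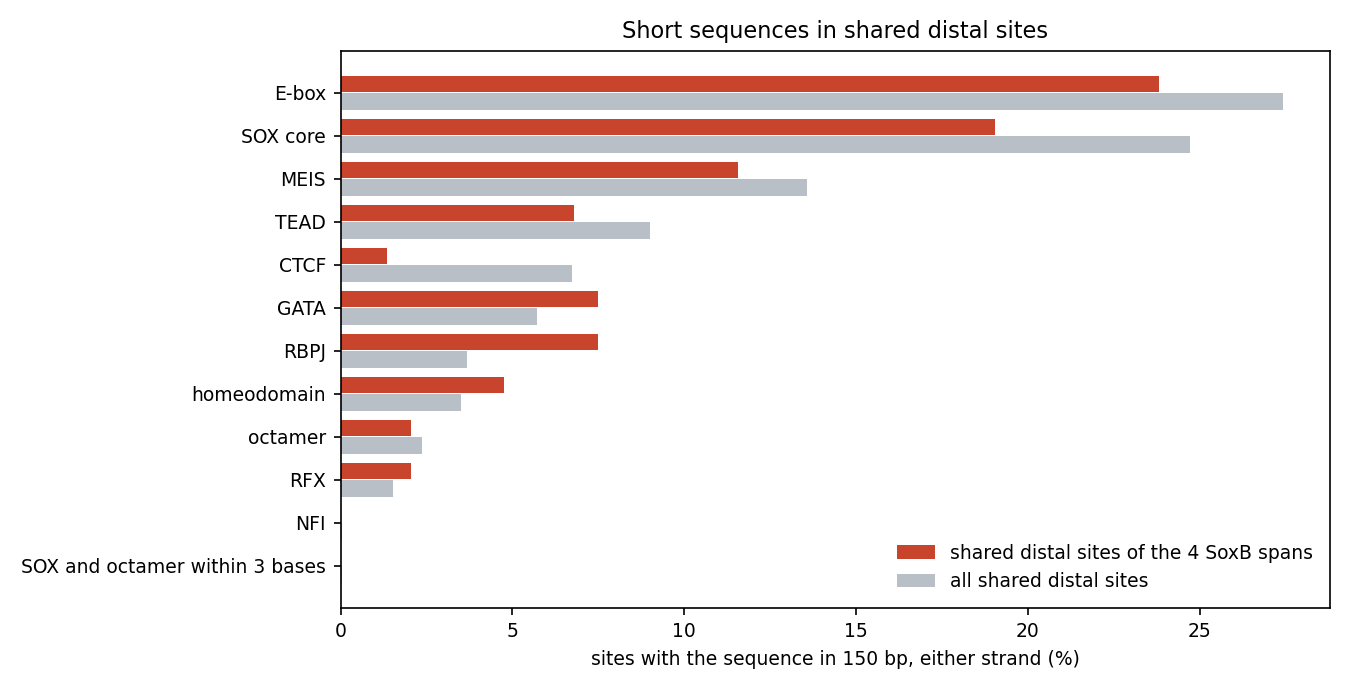
Share of shared distal sites that hold each short sequence in 150 bp, for the 147 sites of the 4 SoxB spans (red, upper bar of each pair) and for all 60578 sites (grey, lower bar). The SOX core is at 19.05% against 24.7%, CTCF at 1.36% against 6.74% and RBPJ at 7.48% against 3.67%.

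Other Sox genes and known partners give the setting. Of 15 other Sox genes, 14 had a TSS peak in both replicates (93.3%), against 65.5% of all protein-coding genes. Sox10, a neural crest and oligodendrocyte gene, had one of 25 in replicate 2 only. By mean percentile of TSS signal the highest was Sox11, a gene of newborn neurons, at 133 and 78, although in replicate 2 Sox12 had 82. Their median number of shared sites was 7 within 15 kb and 41 in the span, with the most in a span, 61, at Sox6. Sox14, the other SoxB2 gene, had a weak TSS (28 and 47) but 22 shared sites within 15 kb, more than Sox21.

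All 23 genes listed as partners or targets of SoxB proteins had a TSS peak in both replicates, against 65.5% of all protein-coding genes. Among the 23, Hes5, a Notch effector, had the highest mean percentile of TSS signal (140 and 84) and Prom1 the lowest (93 and 49). By replicate 2 alone Notch1 was highest, at 98, and Pou3f4 lowest, at 43. Their medians were 9 shared sites within 15 kb and 42 in the span, with the most in a span, 101, at Msi2. The neural POU genes Pou3f3 and Pou3f2 had 35 and 32 within 15 kb, beside 34 at Sox2, and the X-linked Pou3f4 had 8, beside 13 at Sox3. Sox9 was in both lists.

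The tissue's markers bear on how the SoxB values read. TSS peaks of both replicates were found at 13 of 15 midbrain genes, 9 of 10 forebrain genes, 7 of 9 hindbrain and spinal cord genes and 6 of 6 neuronal genes. They were found at 0 of 5 erythroid, 0 of 5 microglial, 0 of 4 liver, 1 of 5 endothelial (Kdr) and 3 of 5 mesenchymal genes. Over all protein-coding genes the share was 65.5%. The hindbrain and spinal cord share (77.8%) and the mesenchymal share (60%) lay close to it. An open TSS thus did not separate midbrain from the neighbouring brain regions.

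By TSS signal and the number of merged peaks per span in each replicate, the genes most like each SoxB gene were Brd2 and Selenoi for Sox1, Sympk and Ercc2 for Sox2, Prkcq and Lrrc6 for Sox3, and Zfp407 and Krba1 for Sox21. The measure was the distance over these 4 percentiles, which came to 3.72 and 3.97 percentile points for Sox1, 1.68 and 2.40 for Sox2, 4.34 and 5.08 for Sox3, and 4.88 and 5.15 for Sox21. No SoxB gene was among those nearest to another.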

How the data were processed

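The members and gene lists were chosen with earlier results of these data known. For each of the 2 replicates the authors deposited peaks and hotspots on mm10, called on that replicate alone, per their file records. Which aligner, caller and filters made them is not given in the sources used here. Each deposited peak had a signal, a whole number with no stated normalization, and each deposited hotspot carried a −log10 q-value from 1.30 to a ceiling of 100. Nearly all deposited peaks were 150 bp wide. Read depth is unknown, so no counting interval is given.

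Peaks on chromosomes 1 to 19 and X of both replicates were merged at any overlap of 1 bp or more. A merged site took the highest signal of each replicate's peaks in it. Start sites came from protein-coding GENCODE vM21 basic transcripts on GRCm38.p6, and counts around a gene used its outermost 5′ start. Percentiles give ties their middle rank. Short sequences were searched on both strands in 150 bp around midpoints. With 1 group of 2 replicates and no control, no statistical test was made.

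Named sites followed a rule. It took every TSS peak, the 3 strongest shared distal sites by mean percentile, the nearest and the farthest on either side, the widest hotspot and the strongest peak of each replicate alone. The 15 kb window, the comparison of signals between replicates, the interval upstream of Sox1, the check against RefSeq starts and the sites printed for their SOX cores or octamer were chosen after seeing the data. Alternatives changed the overlap, peak threshold, flanks, windows, feature and replicates. The counting was tested on simulated data. Python 3.11.15, NumPy 2.4.6, SciPy 1.17.1 and matplotlib 3.10.9 were used.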

Additional observations from a re-analysis of the deposited data

How the results depend on the processing

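Depth is unknown, and replicate 2 lists 1.49 times as many peaks as replicate 1. Using peaks of 1 replicate alone gave 104 to 206 sites in the Sox1 span, 111 to 131 at Sox2, 35 to 61 at Sox3 and 82 to 90 at Sox21, and TSS peaks at all 4 genes. Shared hotspots in place of peaks gave 31 at Sox1, 21 at Sox2 and 10 at Sox3, since wide hotspots each hold several peaks. An overlap of 75 bp left 9 at Sox3 and 28 at Sox21. Flanks of 50 kb gave 36 at Sox1 and 22 at Sox21, and flanks of 100 kb gave 29 at Sox21, by construction. The share of merged sites that were shared was 18.6% (genome 11.3%) with an overlap of 75 bp and could not be computed from 1 replicate.

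The share of distal sites with a SOX core was 40.1% (41.5% of all) in 300 bp and 7.48% (9.82%) for ACAATG alone. It was 28.5% from replicate 1 alone and 19.4% from replicate 2 alone, with no genome share computed beside them. Within 15 kb, Sox1 was at the 99.98th percentile in a 10 kb window, the 99.82nd in 25 kb and the 99.97th with an overlap of 75 bp. With 1 replicate the percentiles were 99.79 to 99.82 at Sox1, 99.57 to 99.92 at Sox2, 90.6 to 99.5 at Sox3 and 96.0 to 99.2 at Sox21, the lower value at each gene without replicate 1. With a TSS window of 150 bp, 3 of the 4 genes kept a TSS peak in both replicates by GENCODE starts, Sox2 missing it, and 3 of 3 by RefSeq starts. Of 70 alternative values, 28 were classed as moved and 42 were not, but the classing does not follow the change in rank. The 42 include the falls of Sox3 within 15 kb from the 99.1st percentile to the 97.5th, 97.4th and 96.9th. The 28 include the change of Sox1 from the 99.94th to the 99.98th. No paired analysis was possible because there is 1 group.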
